A study of Mus musculus with 8 samples.

Results

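The probe sets of Reg3b, Reg3g and Retnlb, 3 genes for secreted antibacterial proteins of the intestinal epithelium, were followed through 8 pools of mouse colon RNA that differed in strain and in the Il10 allele. Members were all probe sets whose platform annotation named 1 of these genes and no other. There were 5 of them among the 12422 probe sets of the array: 96009_s_at and 161890_f_at for Reg3b, 96064_at and 162187_f_at for Reg3g, and 93755_at for Retnlb. Measured values of these arrays are no part of that rule, but the 3 genes were chosen with earlier results of these data known. The lowest value of any of the 5 in any pool, 97.2, lay above the minimum mean intensity of 37.0 for testing, so no member entered the tests through 1 group alone.

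RNA of whole colon was hybridised to Affymetrix MG_U74Av2 arrays, 1 array for each pool, and each pool combined 7 µg of RNA from every animal in it. The 4 groups were C3H/HeJBir-Il10tm1Cgn (pools of 5 and 4 animals), C3H/HeJBir (4 and 4), C57BL/6J-Il10tm1Cgn (5 and 5) and C57BL/6J (5 and 5), with 2 pools each, which the labels number sample 1 and sample 2. Il10tm1Cgn is a targeted allele of Il10, the gene of interleukin 10, a cytokine that restrains inflammatory responses. It is carried in the germ line, so all cells of the animal have it. C3H/HeJBir is a substrain of C3H/HeJ, a strain known for a defective Tlr4, the receptor for bacterial lipopolysaccharide. The title of the sample 2 pool of C57BL/6J gives an age of 4 weeks. For the other pools no age was found in the labels, and for none the sex. A pool hides the differences between its animals, and the p-values below rest on the spread between pools. Each group holds a sample 1 and a sample 2 pool, so this spread includes any shift between the sample numbers.

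Reg3b and Reg3g encode C-type lectins that epithelial cells release into the gut lumen. Reg3g binds the peptidoglycan of Gram-positive bacteria and kills them, and Reg3b acts also on Gram-negative bacteria. Both genes are known to be low in germ-free mice and to be induced by bacterial colonisation, by Myd88-dependent sensing of microbes and by interleukin 22, which signals through the transcription factor Stat3. Retnlb encodes resistin-like molecule beta, a small protein that goblet cells of the colon secrete. It is known to be induced by bacterial colonisation and by the type 2 cytokines interleukin 4 and interleukin 13, and to kill Gram-negative bacteria.

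Reg3b and Reg3g lie in 1 gene cluster on chromosome 6, and Retnlb lies on chromosome 16. The promoters of both lectin genes are shown because the 4 lectin probe sets had similar profiles over the pools. RefSeq sequences for GRCm38.p6, from 250 bases before to 50 bases after the annotated start of the gene, were at hand for 2 of the 3 genes, at chr6:78370635-78370934 on the plus strand for Reg3b and chr6:78468825-78469124 on the minus strand for Reg3g. Both are printed 5′ to 3′ along the gene, with matches to TTCNNNGAA, a palindrome that Stat proteins are known to bind, and to TATAAA, the core of the TATA box, in capitals.
Reg3b: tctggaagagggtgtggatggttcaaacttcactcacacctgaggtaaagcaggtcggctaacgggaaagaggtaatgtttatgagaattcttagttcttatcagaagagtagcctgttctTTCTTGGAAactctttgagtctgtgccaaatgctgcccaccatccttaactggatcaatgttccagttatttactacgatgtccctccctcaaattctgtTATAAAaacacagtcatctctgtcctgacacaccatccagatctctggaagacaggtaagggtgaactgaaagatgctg
Reg3g: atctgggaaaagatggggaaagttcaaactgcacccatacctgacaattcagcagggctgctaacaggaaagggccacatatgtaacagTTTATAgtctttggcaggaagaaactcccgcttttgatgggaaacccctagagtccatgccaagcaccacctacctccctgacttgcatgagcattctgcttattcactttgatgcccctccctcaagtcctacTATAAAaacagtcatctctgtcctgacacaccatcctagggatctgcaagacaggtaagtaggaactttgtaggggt
Both strands were searched, and the 2 motifs did not overlap in either window. TTCNNNGAA was found in the Reg3b window as TTCTTGGAA, beginning 129 bases before the start, and 8.3% of 32851 promoters of the same length hold this motif. TATAAA began 29 bases before the start of Reg3b and 27 bases before the start of Reg3g, and on the opposite strand as TTTATA 161 bases before that of Reg3g. Of the 32851 promoters, 13.6% hold it. In a global alignment the windows were identical in 210 of 306 columns (68.6%). Their longest identical run, acagtcatctctgtcctgacacaccatcc, has 29 bases and begins 20 bases before the start in both genes. A match says that these letters are in the window, not that a factor binds there.

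The deposited arrays were already on 1 level, with median intensities of 50.1 to 62.2. Colon markers were present in all 8 pools: Car1, a carbonic anhydrase of colonocytes, read 6956 to 8533, Tff3, a goblet cell trefoil factor, 7088 to 8939, and the smooth muscle genes Acta2 and Myh11 read 1119 to 2160 and 1413 to 2837. Muc2 and Slc26a3 were not analysed here, having no probe set annotated to them alone. The sample 1 pool of C3H/HeJBir-Il10tm1Cgn stood apart, since its Spearman coefficients with the other 7 arrays averaged 0.915 and those of any other pool 0.931 to 0.945. The arrays were hybridised on 3 days: the sample 1 Il10tm1Cgn pools on 1 day, the sample 1 wild-type pools on another, and all sample 2 pools on the third. Strains were thus compared within a day in every case, whereas Il10 genotypes were compared within a day in the sample 2 pools only. Xist, the RNA of the inactive X chromosome in females, was at 243 to 452 in every sample 1 pool and at 2.84 to 12.9 in every sample 2 pool. It thus split the pools as the sample number does, and a fit with a block on that number is given with the alternatives. The part of Xist itself in the results was not tested, since the hybridisation day also differs between the sample numbers.

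The targeted gene was read by 1 probe set, 100319_at. Il10 read 28.3 and 35.4 in the C3H/HeJBir-Il10tm1Cgn pools, against 5.43 and 10.9 in the C3H/HeJBir pools. It read 51.7 and 22.03 in the C57BL/6J-Il10tm1Cgn pools, against 9.70 and 7.34 in the C57BL/6J pools. These low values, with a mean over all arrays of 21.3, lay below the minimum for testing. The labels do not say whether the probes lie inside or outside the altered part of the gene, so this reading checks no label.

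Both probe sets of Reg3b were brighter in the Il10tm1Cgn pools of each strain. Probe set 96009_s_at read 11625 and 9482 (samples 1 and 2, in this order throughout) in C3H/HeJBir-Il10tm1Cgn, against 7828 and 8043 in C3H/HeJBir. It read 8132 and 10420.0 in C57BL/6J-Il10tm1Cgn, against 6422 and 7196 in C57BL/6J. Its highest value was 1.81 times its lowest. Probe set 161890_f_at read 6496 and 4281 in C3H/HeJBir-Il10tm1Cgn, against 2936 and 2403 in C3H/HeJBir. It read 3448 and 5248 in C57BL/6J-Il10tm1Cgn, against 1378 and 1344 in C57BL/6J, and its highest value was 4.83 times its lowest. The order of the 4 groups was the same for both probe sets, with C3H/HeJBir-Il10tm1Cgn highest, then C57BL/6J-Il10tm1Cgn, then C3H/HeJBir, and C57BL/6J lowest. The pools of the highest 2 groups in this order overlapped, and those of the other neighbours did not.

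Reg3g had the same outline with wider differences. Probe set 96064_at read 7003 and 3922 in C3H/HeJBir-Il10tm1Cgn, against 2646 and 2666 in C3H/HeJBir. It read 2496 and 3915 in C57BL/6J-Il10tm1Cgn, against 646 and 1016 in C57BL/6J. The wild-type pools of C3H/HeJBir lay within the range of the C57BL/6J-Il10tm1Cgn pools, and the C57BL/6J pools lay below all others. Probe set 162187_f_at, which was dimmer, read 1558 and 466.5 in C3H/HeJBir-Il10tm1Cgn, against 412 and 255 in C3H/HeJBir. It read 424 and 554 in C57BL/6J-Il10tm1Cgn, against 97.2 and 132 in C57BL/6J. The C3H/HeJBir-Il10tm1Cgn pools were 3.34 times apart here, the largest gap between 2 pools of a group among the 5 probe sets, and they overlapped with the C57BL/6J-Il10tm1Cgn pools. The highest value over all pools was 10.8 times the lowest for 96064_at and 16.0 times for 162187_f_at.

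Retnlb differed mainly by strain. Its probe set read 10963 and 10101 in C3H/HeJBir-Il10tm1Cgn, against 10942 and 9363 in C3H/HeJBir. It read 1572 and 4033 in C57BL/6J-Il10tm1Cgn, against 745 and 514 in C57BL/6J. All 4 C3H/HeJBir pools, of either Il10 genotype, lay above all 4 C57BL/6J pools, and the 2 C3H/HeJBir groups overlapped. The share of all tested probe sets with this split of 4 and 4 pools was not counted. The highest value was 21.3 times the lowest, the widest range among the 60 probe sets of the array with a mean of at least 5000, whose median range was 1.36-fold (a limit chosen after the values were seen). Over all tested probe sets the median range was 1.90-fold. The C3H/HeJBir readings of Retnlb were close to the brightest value of each array, which ran from 9808 to 12860. Saturation of this probe set was not tested.

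**Figure D1:**
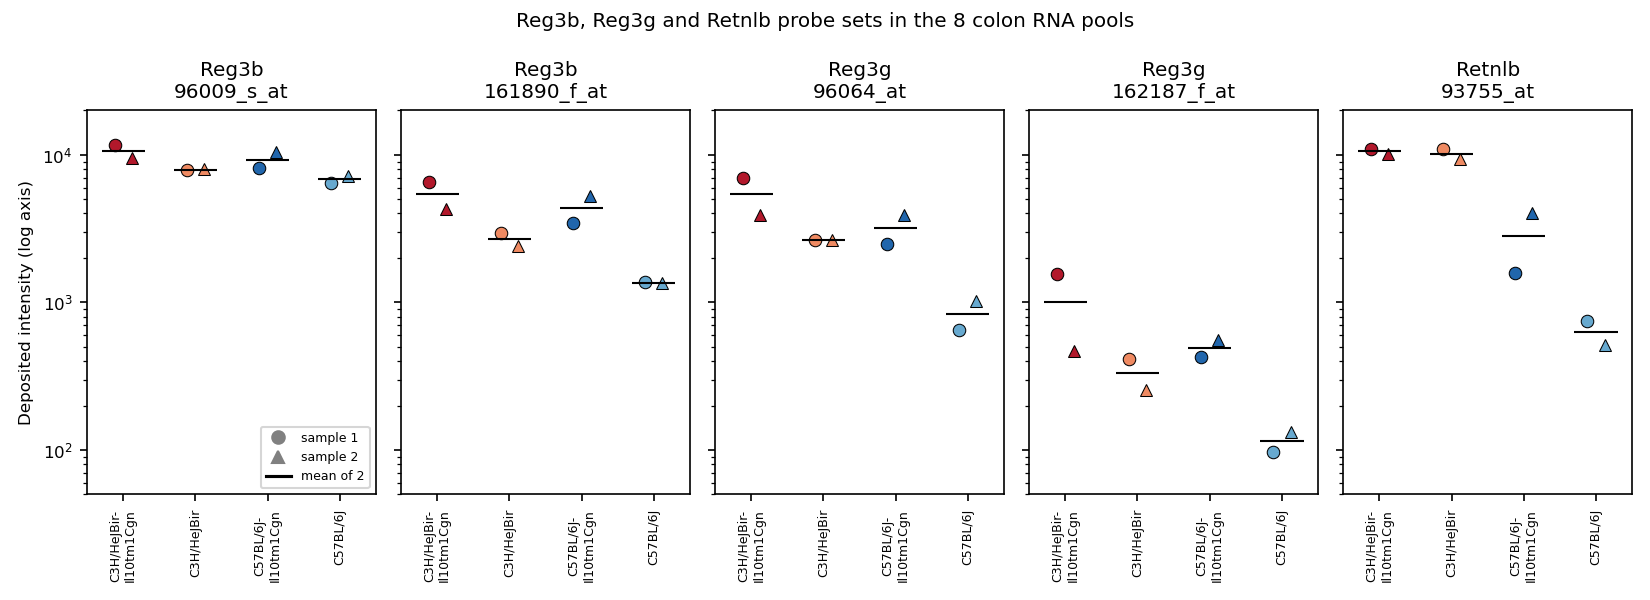
Deposited intensity of the 5 probe sets (log axis) in the 8 pools, with circles for sample 1, triangles for sample 2 and a bar at the mean of the 2 pools of a group. The C57BL/6J pools were lowest in every panel, and Retnlb read 9363 to 10963 in all 4 C3H/HeJBir pools of either genotype.

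In C57BL/6J, where the comparison addressed the effect of lacking functional Il10, all 5 probe sets were higher in the Il10tm1Cgn pools and 0 of 5 passed. Reg3g averaged 3205 ± 1003 in C57BL/6J-Il10tm1Cgn and 831 ± 261 in C57BL/6J (SD, n = 2 each) by 96064_at, a log2 difference of 1.93 ± 0.37 (SE), or 3.82-fold. By 162187_f_at it averaged 489 ± 91.9 and 115 ± 24.8, a log2 difference of 1.99 ± 0.52. Retnlb averaged 2803 ± 1740.2 in C57BL/6J-Il10tm1Cgn and 629 ± 163 in C57BL/6J, a log2 difference of 2.01 ± 0.42, or 4.02-fold. Reg3b averaged 4348 ± 1273 and 1361 ± 23.9 in the same order by 161890_f_at, a log2 difference of 1.64 ± 0.30, or 3.11-fold. The other Reg3b probe set, 96009_s_at, averaged 9276 ± 1618 and 6809 ± 548, a log2 difference of 0.44 ± 0.24, or 1.35-fold. The adjusted p was 1.00 for each of the 5 (limma, Benjamini-Hochberg over 7453 probe sets), and 0% of all tested probe sets passed. At an unadjusted limma p under 0.05 stood 4 of 5, with 96009_s_at the exception, against 1.58% of all tested probe sets. By this p-value 161890_f_at, 96064_at and Retnlb ranked 4, 5 and 7 of 7453. The Il10tm1Cgn pools did not overlap with the wild-type pools in 5 of 5 probe sets, all higher, against 12.6% of all tested probe sets in that direction. The median log2 difference was 1.93 over the 5 and -0.01 over all tested probe sets. In this and the other comparisons the 5 probe sets stand for 3 genes, and those of the lectins had like profiles. Counts out of 5 are therefore not counts of independent results.

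The Il10 difference of Reg3g was nearly the same in both numbered pairs of C57BL/6J pools, and that of Retnlb was not. Between the sample 2 pools, hybridised on 1 day, Reg3g had a log2 difference of 1.93 by 96064_at and 1.98 by 162187_f_at, and between the sample 1 pools, hybridised on different days, 1.93 and 2.01. Retnlb differed by 2.94 between the sample 2 pools, or 7.84-fold, and by 1.07 between the sample 1 pools, or 2.11-fold. Reg3b differed by 1.96 and 1.32 in that order by 161890_f_at, and by 0.53 and 0.34 by 96009_s_at. Every one of these differences was positive. In bulk RNA, more cells that make a transcript cannot be told apart from more transcript per cell. The 11 tested markers of goblet cells, which make Retnlb, summed to 37869 and 38896 in C57BL/6J-Il10tm1Cgn, against 40209 and 41382 in C57BL/6J. Bright members such as Tff3, at 7088 to 8939, weigh most in this sum. The part of goblet cells in the Retnlb difference was not tested.

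In C3H/HeJBir the lectins were higher in the Il10tm1Cgn pools by a log2 of 0.40 to 1.37, Retnlb differed by less than its spread between pools, and 0 of 5 probe sets passed. Reg3b averaged 5388 ± 1566 in C3H/HeJBir-Il10tm1Cgn and 2669.6 ± 377 in C3H/HeJBir (SD, n = 2 each) by 161890_f_at, a log2 difference of 0.99 ± 0.30, or 1.98-fold. By 96009_s_at it averaged 10554 ± 1515 and 7935 ± 152, a log2 difference of 0.40 ± 0.24. Reg3g averaged 5462 ± 2179 and 2656 ± 14.3 by 96064_at, a log2 difference of 0.98 ± 0.37, or 1.97-fold. By 162187_f_at it averaged 1012 ± 771 and 333 ± 111, a log2 difference of 1.37 ± 0.52. Retnlb averaged 10532 ± 610.0 in C3H/HeJBir-Il10tm1Cgn and 10152 ± 1116 in C3H/HeJBir, a log2 difference of 0.06 ± 0.42 with a 95% interval of -0.90 to 1.01. These 4 readings, 9363 to 10963, lay close to the brightest value of their arrays, where a further rise could go unread, and saturation was not tested. The adjusted p was 0.999 for each of the 5 (limma), where 0.0134% of all tested probe sets passed. At an unadjusted limma p under 0.05 stood 3 of 5, against 2.83% of all tested probe sets. The pools did not overlap in the 4 lectin probe sets, all higher, against 11.3% of all tested probe sets.

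Much of the C3H/HeJBir difference came with 1 pool. The sample 1 pool of C3H/HeJBir-Il10tm1Cgn, which stood apart from all others, held the highest value of every one of the 5 probe sets. Without it the log2 differences in C3H/HeJBir were 0.69 and 0.26 for the Reg3b probe sets 161890_f_at and 96009_s_at, 0.56 and 0.51 for the Reg3g probe sets 96064_at and 162187_f_at, and -0.003 for Retnlb. In the sample 2 pools alone, all of 1 day, they were 0.83 and 0.24, 0.55 and 0.84, and 0.11 in the same order. Other cell types moved with that pool as well. The 5 tested neutrophil markers summed to 3053 and 1320.2 in C3H/HeJBir-Il10tm1Cgn, with the higher sum in sample 1, against 970 and 1440.1 in C3H/HeJBir. In C57BL/6J-Il10tm1Cgn they summed to 981 and 1329, against 736 and 1175 in C57BL/6J. The 13 tested exocrine pancreas genes, which include Reg1 of the same gene family, summed to 6525 and 3166 in C3H/HeJBir-Il10tm1Cgn, against 5131 and 4927 in C3H/HeJBir. They summed to 5635 and 3110.1 in C57BL/6J-Il10tm1Cgn, against 5016 and 4116 in C57BL/6J, and the lowest reading of any of them in any pool was 3.21. The 5 tested small intestinal and Paneth cell genes summed to 1572 and 2075 in C3H/HeJBir-Il10tm1Cgn, against 2041 and 2312 in C3H/HeJBir. In C57BL/6J-Il10tm1Cgn they summed to 1788 and 2257, against 1948 and 2677 in C57BL/6J. Fabp2, at 1047 to 2528, weighs most in these sums. The median log2 deviation of the 5 genes from their means over the arrays gave another order. It was -0.04 and 0.36 in C3H/HeJBir-Il10tm1Cgn, against -0.06 and 0.21 in C3H/HeJBir. In C57BL/6J-Il10tm1Cgn it was -0.14 and -0.10, against -0.46 and -0.35 in C57BL/6J. The 7 tested smooth muscle markers summed to 9563 and 17040.2 in C3H/HeJBir-Il10tm1Cgn, against 14724 and 12489 in C3H/HeJBir. In C57BL/6J-Il10tm1Cgn they summed to 14512 and 11693, against 15612 and 14779 in C57BL/6J. The 11 tested goblet cell markers summed to 33967 and 38816 in C3H/HeJBir-Il10tm1Cgn, against 40717 and 39071 in C3H/HeJBir. Both of these sums were lowest, of all 8 pools, in the sample 1 pool of C3H/HeJBir-Il10tm1Cgn. The part of these cell types in the values of the 5 probe sets was not tested.

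Averaged over both strains, the Il10 difference was positive for all 5 probe sets, and 0 of 5 passed. It was a log2 of 1.31 ± 0.21 for Reg3b 161890_f_at and 0.42 ± 0.17 for 96009_s_at, 1.46 ± 0.26 for Reg3g 96064_at and 1.68 ± 0.37 for 162187_f_at, and 1.03 ± 0.30 for Retnlb. The lowest adjusted p was 0.623, for 161890_f_at (limma), and 0% of all tested probe sets passed. At an unadjusted limma p under 0.05 stood 5 of 5, against 3.09% of all tested probe sets. In 3 of 5 the 4 Il10tm1Cgn pools lay above all 4 wild-type pools, against 1.05% of all tested probe sets. These 3 were both Reg3b probe sets and Reg3g 162187_f_at.

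Dependence of the Il10 effect on strain was read from the difference of the 2 effects, C3H/HeJBir minus C57BL/6J. It was negative for all 5 probe sets, widest for Retnlb, and 0 of 5 passed. For Retnlb it was a log2 of -1.95 ± 0.59, with a 95% interval of -3.30 to -0.59 (limma adjusted p = 1.00), and it rests on the C3H/HeJBir readings near the top of the range. For Reg3g it was -0.96 ± 0.52 by 96064_at and -0.63 ± 0.73 by 162187_f_at, and for Reg3b -0.65 ± 0.43 by 161890_f_at and -0.03 ± 0.34 by 96009_s_at. Of the 5 probe sets, 1 stood at an unadjusted limma p under 0.05, against 1.50% of all tested probe sets, and 0% of all tested probe sets passed. A smaller response of the lectins in C3H/HeJBir was therefore not shown by the test, and the 95% interval for 96064_at, -2.15 to 0.24, includes 0.

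The strain comparison in wild type asked how the colons differ before Il10 is removed, and here Retnlb passed. It averaged 10152 ± 1116 in C3H/HeJBir and 629 ± 163 in C57BL/6J (SD, n = 2 each), a log2 difference of 4.01 ± 0.42, or 16.1-fold (limma adjusted p = 0.00640). It ranked 6 of 7453 by log2 difference from the highest. The ratio was 14.7 in the sample 1 pools and 18.2 in the sample 2 pools, each within 1 day. Goblet cell markers summed to 40717 and 39071 in C3H/HeJBir, against 40209 and 41382 in C57BL/6J, over 11 tested members. The part of goblet cells in the strain difference of Retnlb was not tested. The call of Retnlb ended without any 1 of the 4 pools compared, although the value stayed between 3.74 and 4.27. Its limma adjusted p was 0.0824 and 0.0721 without the sample 1 and the sample 2 pool of C3H/HeJBir, and 0.0512 and 0.0792 without those of C57BL/6J.

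The lectins were also higher in C3H/HeJBir wild type, and 0 of these 4 probe sets passed. Reg3g averaged 2656 ± 14.3 in C3H/HeJBir and 831 ± 261 in C57BL/6J by 96064_at, a log2 difference of 1.70 ± 0.37, or 3.25-fold (limma adjusted p = 0.183). By 162187_f_at the difference was 1.43 ± 0.52 (adjusted p = 0.682, limma). Reg3b differed by 0.96 ± 0.30 by 161890_f_at (adjusted p = 0.552, limma) and by 0.22 ± 0.24 by 96009_s_at (adjusted p = 1.00, limma). In all, 1 of 5 probe sets passed, against 0.403% of all tested probe sets, and 4 of 5 stood at an unadjusted limma p under 0.05, against 5.68%. The C3H/HeJBir pools lay above the C57BL/6J pools in 5 of 5, against 14.0% of all tested probe sets.

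Between the Il10tm1Cgn groups the lectins differed between the strains by a log2 of 0.19 to 0.80, and 0 of 5 probe sets passed. Retnlb averaged 10532 ± 610.0 in C3H/HeJBir-Il10tm1Cgn and 2803 ± 1740.2 in C57BL/6J-Il10tm1Cgn, a log2 difference of 2.06 ± 0.42, or 4.16-fold (limma adjusted p = 0.136). Its ratio was 6.97 in the sample 1 pools and 2.50 in the sample 2 pools. Reg3g differed by 0.74 ± 0.37 by 96064_at and 0.80 ± 0.52 by 162187_f_at, and Reg3b by 0.31 ± 0.30 by 161890_f_at and 0.19 ± 0.24 by 96009_s_at (limma adjusted p = 1.00 for each). In the sample 2 pools the strains were level for Reg3g 96064_at, at 3922 in C3H/HeJBir-Il10tm1Cgn and 3915 in C57BL/6J-Il10tm1Cgn. The other lectin probe sets were lower there in C3H/HeJBir-Il10tm1Cgn, with log2 differences of -0.14 and -0.29 for Reg3b 96009_s_at and 161890_f_at and -0.24 for Reg3g 162187_f_at. In the sample 1 pools all 4 were higher in C3H/HeJBir-Il10tm1Cgn, by a log2 of 0.51 to 1.85. Of the 5 probe sets, 1 stood at an unadjusted limma p under 0.05, against 5.17% of all tested probe sets, of which 0.295% passed. The pools did not overlap in 2 of 5, Retnlb and Reg3g 96064_at, against 11.9% of all tested probe sets. Comparisons that share a group share its pools, so their values are not independent.

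**Figure D2:**
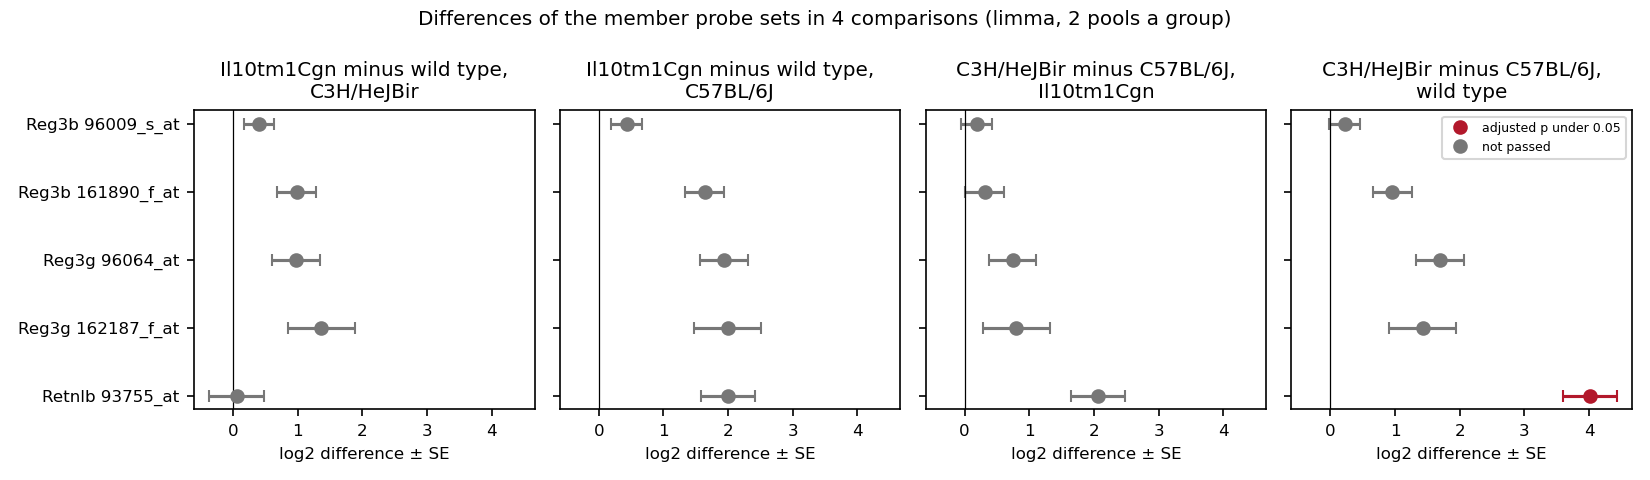
Log2 differences of the 5 probe sets (points) with their SE (bars) in the Il10 comparison of each strain, Il10tm1Cgn minus wild type, and the strain comparison of each genotype, C3H/HeJBir minus C57BL/6J, with 2 pools in a group. Retnlb ran from 0.06 in the Il10 comparison of C3H/HeJBir to 4.01 in the strain comparison of wild type, the only one that passed (red).

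The probe sets of Reg3b ordered the groups alike and gave Il10 differences of different size, although no difference between the probe sets was called. In C57BL/6J the Il10 difference was 0.44 by 96009_s_at and 1.64 by 161890_f_at. The brighter probe set read 1.79 and 2.21 times the other in C3H/HeJBir-Il10tm1Cgn, against 2.67 and 3.35 times in C3H/HeJBir. It read 2.36 and 1.99 times the other in C57BL/6J-Il10tm1Cgn, against 4.66 and 5.36 times in C57BL/6J. The ratio was thus lower in the Il10tm1Cgn pools of each strain, without overlap, and it was highest in the pools where both probe sets were dimmest. The share of other probe set pairs whose ratios part the pools in this way was not counted. Across the 8 pools their log2 values had a Pearson coefficient of 0.947 and a Spearman coefficient of 0.952, given as a description of pools that share 4 groups. Per unit of log2 in 96009_s_at, 161890_f_at moved by 2.79.

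The disagreement itself was fitted with limma on the log2 difference between probe sets of a gene, over 1040 pairs from 902 genes. For Reg3b the Il10 effect of 96009_s_at was smaller than that of 161890_f_at within each strain. The difference was -1.20 ± 0.30 (log2) for C57BL/6J, with the smallest p-value of the 1040 pairs, and was not called (limma adjusted p = 0.998). In C3H/HeJBir it was -0.58 ± 0.30 (limma adjusted p = 0.993). For the average Il10 effect it was -0.89 ± 0.21, again with the smallest p-value of the 1040 pairs (limma adjusted p = 1.00). It was -0.74 ± 0.30 for the strain effect in wild type (limma adjusted p = 0.816) and -0.12 ± 0.30 for that in Il10tm1Cgn. Of all pairs, 0% passed for the Il10 effect in either strain and for its average, 0.865% for the strain effect in wild type and 0.577% for that in Il10tm1Cgn. The Reg3g probe sets were closer to each other, with a difference of -0.06 ± 0.39 between their Il10 effects in C57BL/6J and -0.39 ± 0.39 in C3H/HeJBir.

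In the array's naming, the suffix _s_at marks probes that match more than 1 transcript and _f_at probes shared by a family of similar sequences, while a plain _at marks probes held to be specific. Both Reg3b probe sets and Reg3g 162187_f_at therefore carry a suffix that warns of matches to related transcripts. Whether Reg3g or other Reg transcripts contribute to the Reg3b readings was not tested, nor was saturation of 96009_s_at, which read up to 11625 on an array whose brightest value was 12860. Values of different probe sets do not rank the genes by abundance.

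**Figure D3:**
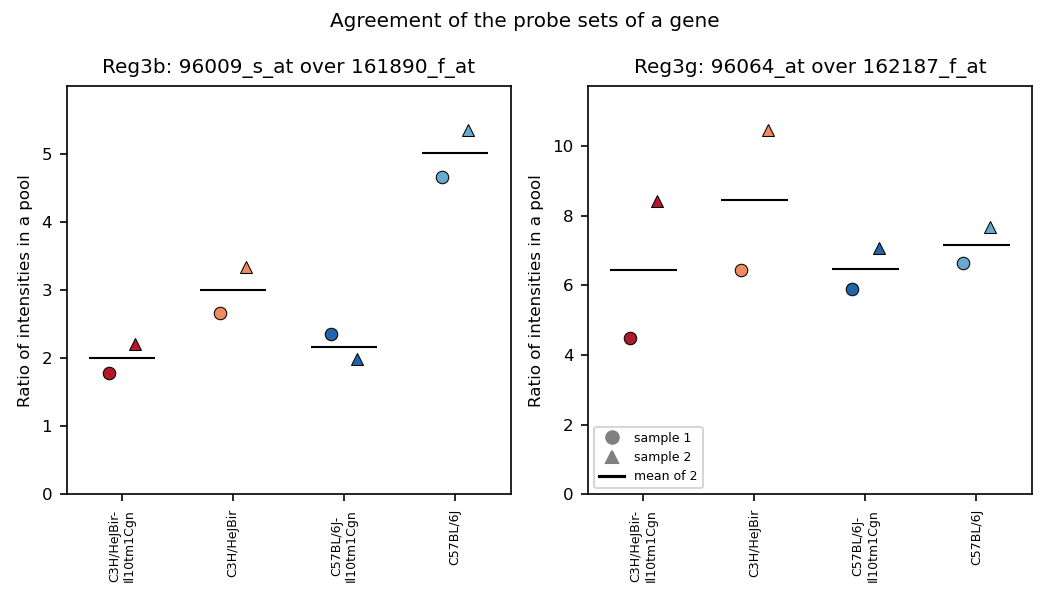
Ratio of the brighter to the dimmer probe set of Reg3b and of Reg3g in each pool (linear axis from 0), with circles for sample 1, triangles for sample 2 and a bar at the mean of 2 pools. The Reg3b ratio was 1.79 to 2.36 in the 4 Il10tm1Cgn pools and 2.67 to 5.36 in the 4 wild-type pools, whereas the Reg3g ratio overlapped between genotypes.

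Reg3b and Reg3g had like profiles over the pools, and Retnlb was less like either. Between a Reg3b and a Reg3g probe set the Pearson coefficient of log2 values over 8 pools was 0.931 to 0.959, and with Retnlb the 4 lectin probe sets had 0.651 to 0.828. The probe sets with the most similar profiles were named by the Pearson coefficient over the 8 pools, among 6723 tested candidates with 1 gene symbol. For Reg3b 96009_s_at they were Iigp1, an interferon-inducible GTPase (0.975), the chaperonin subunit Cct3, the ribosomal protein gene Rpl22, H2-DMb1, which helps to load peptides on MHC class II, and Cd74, the invariant chain (0.953). For Reg3b 161890_f_at they were 2 probe sets of Iigp1 (0.975 and 0.931), H2-DMa, Ido1, an enzyme of tryptophan breakdown, and Rrbp1, a protein of the rough endoplasmic reticulum.

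For Reg3g 96064_at the 5 most alike were Tm9sf2 (0.965), Pptc7, Psmb8, a subunit of the immunoproteasome, B2m, the light chain of MHC class I, and Pum3 (0.933). For Reg3g 162187_f_at they were Rrbp1 (0.962), Mcm7, Cxcl9, a chemokine induced by interferon gamma, Sema4d and Iigp1 (0.937). The profile of Retnlb was nearest to Stt3b (0.962), a subunit of the oligosaccharyltransferase, Hnrnpc, Rasa1, Rex1bd and Wfdc18 (0.933). Iigp1 was named for 3 of the 4 lectin probe sets and not for 96064_at or Retnlb. With 8 pools in 4 groups and so many candidates, coefficients of this size are a description only, and many genes that follow strain and genotype share the same arrays.

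The lectin cluster on chromosome 6 runs Reg3b, Reg3d, Reg3a, Reg2, Reg1 and Reg3g in the RefSeq gene order, and the values of its other genes were added after the results were seen. Reg3d had 0 probe sets annotated to it alone and was not analysed here. Reg3a read 74.4 and 46.0 by 103954_at in C3H/HeJBir-Il10tm1Cgn, against 98.3 and 91.4 in C3H/HeJBir. It read 16.1 and 48.6 in C57BL/6J-Il10tm1Cgn, against 48.3 and 27.1 in C57BL/6J. Its C3H/HeJBir wild-type pools thus lay above those of C57BL/6J without overlap, as did those of 14.0% of all tested probe sets. Reg1, a product of the exocrine pancreas in healthy animals, read 582 and 64.7 by 160213_at in C3H/HeJBir-Il10tm1Cgn, against 173 and 204 in C3H/HeJBir. It read 210 and 59.6 in C57BL/6J-Il10tm1Cgn, against 104 and 53.0 in C57BL/6J. Reg2 read 184 in the sample 1 pool of C3H/HeJBir-Il10tm1Cgn and 3.30 to 21.6 in the other 7 pools by 95786_at. The Il10 differences of Reg3a were a log2 of -0.60 ± 0.41 in C3H/HeJBir and -0.24 ± 0.41 in C57BL/6J, and those of Reg1 were 0.09 ± 0.89 and 0.54 ± 0.89 (limma adjusted p = 0.999 in C3H/HeJBir and 1.00 in C57BL/6J). Between the strains in wild type Reg3a differed by a log2 of 1.15 ± 0.41 (limma adjusted p = 0.667) and Reg1 by 1.21 ± 0.89 (limma adjusted p = 1.00). Between the Il10tm1Cgn groups they differed by 0.79 ± 0.41 and 0.76 ± 0.89 (limma adjusted p = 1.00 each). Reg2 was too dim to be tested. By these probe sets Reg1 and Reg2 were highest in the sample 1 pool of C3H/HeJBir-Il10tm1Cgn, which also held the highest values of the members. The second probe sets of these genes were too dim to be tested and were divided. Reg1 162312_f_at was highest in the same pool, at 16.95. Reg2 161302_r_at read 40.7 in that pool and was highest in the sample 1 pool of C57BL/6J, at 64.4.

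Among other antibacterial proteins of the epithelium some passed in the strain comparisons, as Retnlb did, and none in the Il10 comparisons. Of 38 such genes listed, 26 were on the array and 21 were tested. In the strain comparison of wild type 4 of the 21 rose and 0 fell, where 0.403% of all tested probe sets passed in either direction. Pla2g2a, a secreted phospholipase that attacks bacterial membranes, averaged 1592 ± 594 in C3H/HeJBir and 25.4 ± 26.8 in C57BL/6J (log2 5.64, limma adjusted p = 0.0160). Slpi, a protease inhibitor with antibacterial action, averaged 2044 ± 329 and 127 ± 9.04 (log2 3.89, limma adjusted p = 0.00517). Itln1, a lectin that binds microbial sugars, averaged 1707 ± 193 and 64.2 ± 1.01, with a log2 difference of 4.51 (limma adjusted p = 0.00956). Mptx1, a pentraxin of the gut, averaged 5886 ± 209.5 and 714 ± 33.8, with a log2 difference of 3.02 (limma adjusted p = 0.00949). The median difference of the list was 0.23 in this comparison, with 14 of 21 positive, where all tested probe sets had -0.02.

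Between the Il10tm1Cgn groups 3 of the 21 rose and 0 fell: Pla2g2a (log2 5.97), Slpi (3.80) and Mptx1 (2.65), with limma adjusted p values of 0.0186, 0.00604 and 0.0192. Of all tested probe sets 0.295% passed in this comparison. The median difference was 0.76, with 19 of 21 positive. For the Il10 difference 0 of 21 passed in either strain, where 0.0134% of all tested probe sets passed in C3H/HeJBir and 0% in C57BL/6J. At an unadjusted limma p under 0.05 stood 2 of 21 in C3H/HeJBir (Itln1 and Saa2), against 2.83% of all tested probe sets, and 0 of 21 in C57BL/6J, against 1.58%. The median log2 difference was 0.20 in C3H/HeJBir, with 15 positive, and -0.06 in C57BL/6J, with 10 positive, where all tested probe sets had -0.01 in each. In C57BL/6J the members with the largest Il10 differences were Reg1 and Pla2g2a (0.45 ± 0.74) on the positive side and Itln1 (-0.37 ± 0.53) and the lysozyme gene Lyz2 (-0.34 ± 0.41) on the negative side. In C3H/HeJBir they were S100a8, a calprotectin subunit of neutrophils (1.51 ± 1.23), and Lbp, which binds lipopolysaccharide (1.04 ± 0.54), and on the negative side Itln1 (-1.68 ± 0.53) and Mptx1 (-0.66 ± 0.34). S100a8 read 581 and 9.53 in C3H/HeJBir-Il10tm1Cgn, a gap that its mean of 295 ± 404 hides. Itln1 read 261 and 1037 in the same pools.

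**Figure D4:**
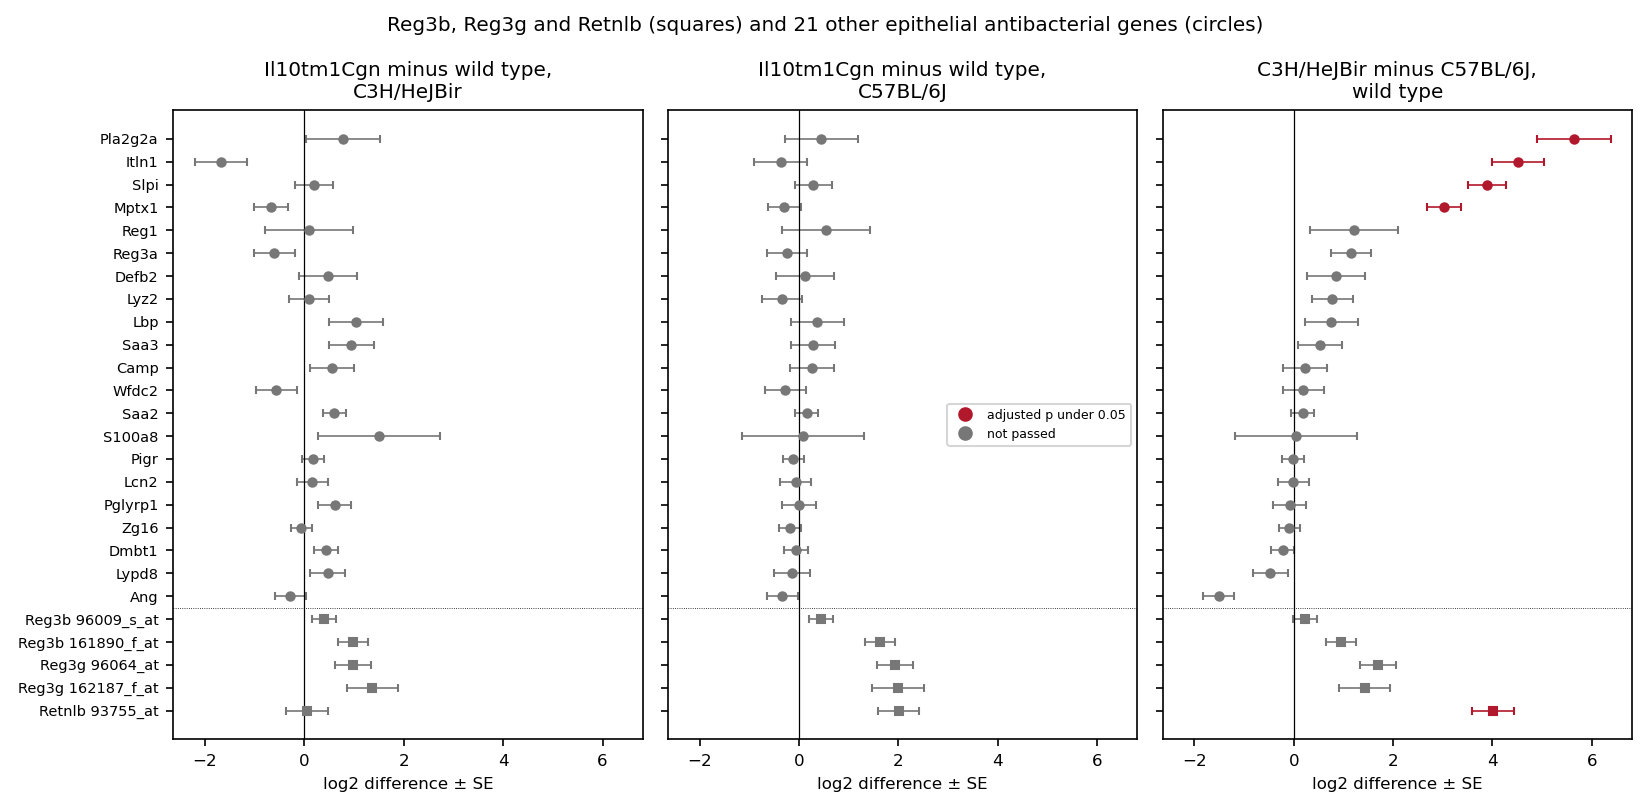
Log2 differences (points) with SE (bars) of the 5 member probe sets (squares, below the dotted line) and of 21 other antibacterial genes of the epithelium (circles), by the brightest probe set of each gene, in the Il10 comparisons of C3H/HeJBir and C57BL/6J and the strain comparison of wild type. In the strain comparison Retnlb and 4 others passed (red), while in the Il10 comparison of C57BL/6J the members lay at 0.44 to 2.01 and no other gene was above 0.54.

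Cytokine signalling genes upstream of the lectins gave 0 passes in any of the 6 comparisons, out of 20 tested of 40 listed. Il18 was the only cytokine gene among the 20, so the list gives no result for other cytokines themselves. The interleukin named above as an inducer of both lectins was not among the 20. For the Il10 difference in C3H/HeJBir 2 of 20, Socs3 and Osmr, stood at an unadjusted limma p under 0.05, against 2.83% of all tested probe sets. In C57BL/6J it was 0 of 20, against 1.58%, and over the 6 comparisons 0 to 4 of 20, against 1.50% to 5.68%. The 4 were Socs3, Osmr, Fos and Stat3 for the average Il10 effect, against 3.09%. Stat3 read 498 and 414 in C3H/HeJBir-Il10tm1Cgn, against 294 and 338 in C3H/HeJBir. It read 348 and 404 in C57BL/6J-Il10tm1Cgn, against 332 and 294 in C57BL/6J. The median Il10 difference of the 20 was a log2 of 0.14 in C3H/HeJBir and 0.10 in C57BL/6J, where all tested probe sets had -0.01 in each. Socs3, a feedback inhibitor that Stat3 induces, averaged 211 ± 111 in C3H/HeJBir-Il10tm1Cgn and 59.5 ± 52.2 in C3H/HeJBir, a log2 difference of 1.79 ± 0.69. In C57BL/6J it differed by 0.67 ± 0.69, at 40.7 and 163 in C57BL/6J-Il10tm1Cgn, against 43.6 and 54.5 in C57BL/6J. Osmr, the oncostatin M receptor, differed by 0.83 ± 0.31 in C3H/HeJBir, and Bcl3, a nuclear regulator of NF-kappa-B, by 0.71 ± 0.32 in C57BL/6J. On the negative side stood Il17ra (-0.55 ± 0.24) and Jak1 (-0.34 ± 0.22) in C3H/HeJBir, and Il18 (-0.28 ± 0.24) and Il1r1 (-0.25 ± 0.24) in C57BL/6J.

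Of 26 listed genes of type 2 signalling, known around Retnlb, 7 were tested and 0 passed in any of the 6 comparisons. Of all tested probe sets 0% to 0.403% passed. Il4 and Il13 were not among the 7, so the list gives no result for these cytokines themselves. In each comparison 0 or 1 of the 7 stood at an unadjusted limma p under 0.05, against 1.50% to 5.68% of all tested probe sets. The median Il10 difference was a log2 of 0.07 in C3H/HeJBir and 0.04 in C57BL/6J, where all tested probe sets had -0.01 in each. In C3H/HeJBir the largest were Mcpt1, a mucosal mast cell protease (0.91 ± 0.48), and the receptor gene Il4ra (0.56 ± 0.34), and on the negative side Cdx2 (-0.46 ± 0.31) and Pou2f3, the tuft cell factor (-0.06 ± 0.29). In C57BL/6J Il9 (0.22 ± 0.47) and Il4ra (0.15 ± 0.34) were largest, with Mcpt1 (-1.11 ± 0.48) and Cdx2 (-0.13 ± 0.31) on the negative side. Mcpt1 averaged 79.6 ± 52.8 in C3H/HeJBir-Il10tm1Cgn and 35.2 ± 20.4 in C3H/HeJBir, but 30.3 ± 7.08 in C57BL/6J-Il10tm1Cgn and 80.6 ± 32.1 in C57BL/6J (SD, n = 2 each). The strain difference of its Il10 effect was a log2 of 2.02 ± 0.68 and did not pass either (adjusted p = 1.00 by limma).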

How the data were processed

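The arrays gave intensity values on a linear scale, 1 per probe set, which the authors deposited on a common scale: array means without the outer 2% agreed to a factor of 1.01. How probes were summarised, whether background was subtracted and any detection calls were not found in the labels or file headers. A pseudocount of 11.07 (20th percentile of the values) was added before log2. Testing was limited to the 7453 of 12422 probe sets, for 5688 genes, whose mean reached 37.0 (40th percentile). Folds are on this log2 scale.

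Groups were read from the titles. The limma package (version 3.58.1, under R 4.3.3) fitted 4 group means and no block, with 4 residual degrees of freedom moderated by 4.23 prior ones. From it came 6 comparisons, two-sided, with Benjamini-Hochberg adjustment of the p-values across the 7453 probe sets and calls under 0.05. The same model was fitted to the log2 difference between the brightest and each other tested probe set of a gene. The number of arrays limits the precision.

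The platform annotation gave 1 symbol to 10833 probe sets, several to 396 and none to 1193. Of the first, 10817 matched the RefSeq table of GRCm38.p6 by gene number, and 0 symbols differed. The members, gene lists and tests were chosen with earlier results of these data known. All probe sets of the members and Il10 were named, then in each list the 2 genes with the largest Il10 difference in each direction and strain and any that passed, and the 5 probe sets most like each member. The neighbouring Reg genes and the sums of marker genes were added after their values were seen. Lists were read by the brightest probe set of a gene.

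The sample number may pair the pools, since the deviations from the group means correlated across probe sets by 0.198 to 0.332 in all 6 pairs of groups. The p-values and SEs of the Results come from fits without this pairing, which was used only as an alternative. Alternatives were other pseudocounts, filters and normalizations, trend and robust moderation, a fit of the compared groups alone, blocks on the sample number and on the hybridisation day, averaged probe sets, and leaving out each pool. The fits were tested on simulated data.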

Additional observations from a re-analysis of the deposited data

How the results depend on the processing

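Over the member and probe set difference results, 644 recalculations kept the direction and the side of the threshold, 10 turned the direction, 4 gained a call and 4 lost one. The call of Retnlb in the strain comparison of wild type, lost without each of 4 pools (log2 3.74 to 4.27), held under every alternative that kept all pools. Retnlb between the Il10tm1Cgn groups passed with a pseudocount at the 50th percentile (2.04, limma adjusted p = 0.0357) and with trend and robust moderation (2.06, adjusted p = 0.0473). That moderation also called Reg3g 96064_at between the wild types (1.70, adjusted p = 0.0476). The average Il10 effect of Reg3g 162187_f_at passed without the sample 2 pool of C3H/HeJBir-Il10tm1Cgn (2.11, adjusted p = 0.0409), with 1.25 to 2.11 over the left-out pools. The Il10 effect of Retnlb in C3H/HeJBir was -0.13 after quantile normalization and -0.056 to 0.17 over the left-out pools. With a block on the hybridisation day it was 0.55, and the average Il10 effect of Retnlb was 1.53, neither called. Signs also turned over the left-out pools for the strain difference of the Il10 effect of Reg3b 96009_s_at (-0.21 to 0.15) and Reg3g 162187_f_at (-1.48 to 0.23). They did so between the Il10tm1Cgn groups for Reg3g 162187_f_at (-0.055 to 1.66) and the Reg3b probe set difference (-0.27 to 0.034). The causes were not tested. None of these was called.

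Counts over all probe sets moved more. For the Il10 effect in C57BL/6J, 1 instead of 0 was called with the pseudocount at the 50th percentile, the filter at the 60th and trend and robust moderation. In C3H/HeJBir 0 instead of 1 was called with a pseudocount at the 5th percentile, no filter, a common median, the compared groups alone, a day block and averaged probe sets, and 0 to 7 over the left-out pools. Between the wild types 30 became 53 with the pseudocount at the 50th percentile, 51 with trend and robust moderation, 49 with the compared groups alone, and 2 to 39 over the left-out pools. Between the Il10tm1Cgn groups 22 became 45, 45 and 12 under the same 3 alternatives, 14 without a filter, 6 with a day block, 13 with averaged probe sets, and 4 to 34 over the left-out pools. The average Il10 effect had 0 to 11 over the left-out pools. With the sample number as a replicate block, which pairs the pools, no call of a member changed and no count moved by over 1.5 times: 31 were called between the wild types and Retnlb had an adjusted p of 0.0193 (limma).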
